A study of Mus musculus with 4 samples.

Results

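The 36 genes described here are immediate early and dissociation-response genes, taken by symbol from a fixed list, out of 31053 genes in the files, and all 36 were found. They were followed in hippocampal cells of C57BL/6 mice, which the labels give as 12 weeks old and the study's methods as males of 6 to 10 weeks. In the 2VO mouse both common carotid arteries were clamped for 50 min, and in the sham mice the clamps were released at once. The scheme of the study has surgery on day 1 and sacrifice on day 7. Every library came from 1 mouse, from tissue digested with pronase for 30 min, at 37 °C in the labels and 34 °C in the methods, and this dissociation was common to both groups. The libraries analysed were 2VO 1, sham 1 and sham 2, and 2VO 2 was not analysed here.

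Immediate early genes are transcribed within minutes of a stimulus by factors already present in the cell, such as SRF, ELK1 and CREB, without new protein synthesis. Their products are mostly transcription factors of the AP-1 family (FOS and JUN proteins), EGR and NR4A factors and KLF factors, together with inhibitors that end the response, such as the phosphatases DUSP1 and DUSP6 and the mRNA-decay protein ZFP36. In the hippocampus Fos, Arc and Npas4 are used as marks of neuronal activity, and the same AP-1, EGR and KLF genes are known to be switched on in glia, vascular cells and microglia while tissue is digested for single-cell work.

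After a minimum of 650 detected genes per barcode, 14147 cells were kept, 3912 in 2VO 1, 5109 in sham 1 and 5126 in sham 2. Their median depth was 2311 unique molecular identifiers (UMIs) in 2VO 1, 8191 in sham 1 and 5249 in sham 2, and any pair of libraries shared 7 to 10 kept barcodes. The libraries stood apart in quality. Mitochondrially encoded genes took 5.89% of the UMIs in 2VO 1, 3.38% in sham 1 and 4.09% in sham 2, and ribosomal-RNA-associated transcripts took 1.53% in 2VO 1, 0.576% in sham 1 and 3.27% in sham 2. The 36 genes took 1.00% of the UMIs in 2VO 1, 0.472% in sham 1 and 1.23% in sham 2, so sham 1 was lowest, and sham 2 highest, in the response genes as in the ribosomal-RNA-associated transcripts. The part of library quality in what follows was not tested.

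Cells were clustered without the 36 genes, and 27 of 29 clusters were named from fixed markers, so each name below means cells like that type by those markers. The 13 classes with at least 10 cells in every library were microglia, macrophages, endothelial cells (ECs), vascular smooth muscle cells (VSMCs), pericytes (PERs), vascular leptomeningeal cells (VLMCs), oligodendrocyte precursor cells (OPCs), mature oligodendrocytes (OLGs), astrocytes (ASTs), neural progenitor cells (NPCs), Cajal-Retzius neurons, choroid plexus epithelial cells (CPECs) and the neuronal clusters. The last of these joined a glutamatergic cluster with one left unnamed because glutamatergic and GABAergic markers were equal in it, and they were put together after the clusters had been seen.

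Promoters of 31 of the 36 genes were matched in the RefSeq table (GRCm38.p6), Cyr61 under its current name Ccn1, and the 250 bases before the start site were searched on both strands for sites of the factors named above. The full cAMP response element TGACGTCA, the site of CREB, was present in 4 of the 31 (Btg2, Dusp1, Maff and Plk2) and in 1.77% of the 27025 genes of the table. Its shorter form TGACG, which the full site contains, was present in 16 of the 31 and in 19.8% of the genes of the table. The CArG box, the site of SRF, was found in 2 of the 31 (Egr2 and Zfp36) and in 1.62% of the genes of the table. The AP-1 site TGANTCA was found in 1 of the 31 (Zfp36l1) and in 7.82%. These are matches of letters only. The sequences below are the promoters of 5 genes whose levels the results turn on, read 5′ to 3′ along the gene's strand, and the capitals mark only the sites named here. They mark the full element at -143 from the start site in Dusp1 and at -166 in Btg2, the short form at -129 and -66 in Fos and, on the opposite strand, at -7 in Atf3, and the CArG box at -58 in Zfp36.
Fos, chr12:85473640-85473889, plus strand: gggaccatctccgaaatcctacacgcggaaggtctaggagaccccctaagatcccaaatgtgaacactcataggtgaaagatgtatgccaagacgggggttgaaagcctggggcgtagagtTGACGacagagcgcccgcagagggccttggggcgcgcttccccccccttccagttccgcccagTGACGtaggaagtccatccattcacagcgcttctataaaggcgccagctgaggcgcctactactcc
Atf3, chr1:191183334-191183583, minus strand: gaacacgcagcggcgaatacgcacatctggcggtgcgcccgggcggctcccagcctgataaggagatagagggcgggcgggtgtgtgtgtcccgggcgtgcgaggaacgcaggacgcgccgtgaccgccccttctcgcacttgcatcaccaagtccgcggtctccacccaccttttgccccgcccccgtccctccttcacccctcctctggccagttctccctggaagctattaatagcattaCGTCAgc
Dusp1, chr17:26508473-26508722, minus strand: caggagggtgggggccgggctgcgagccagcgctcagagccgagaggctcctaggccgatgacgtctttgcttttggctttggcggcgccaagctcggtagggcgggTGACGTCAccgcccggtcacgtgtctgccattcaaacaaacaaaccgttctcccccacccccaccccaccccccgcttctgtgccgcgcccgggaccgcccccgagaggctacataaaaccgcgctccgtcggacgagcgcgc
Btg2, chr1:134079156-134079405, minus strand: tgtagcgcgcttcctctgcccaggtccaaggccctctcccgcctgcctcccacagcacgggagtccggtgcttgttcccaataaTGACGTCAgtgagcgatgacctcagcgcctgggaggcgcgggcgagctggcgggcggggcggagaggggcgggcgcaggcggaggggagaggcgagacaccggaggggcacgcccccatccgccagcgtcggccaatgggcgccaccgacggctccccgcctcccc
Zfp36, chr7:28379229-28379478, minus strand: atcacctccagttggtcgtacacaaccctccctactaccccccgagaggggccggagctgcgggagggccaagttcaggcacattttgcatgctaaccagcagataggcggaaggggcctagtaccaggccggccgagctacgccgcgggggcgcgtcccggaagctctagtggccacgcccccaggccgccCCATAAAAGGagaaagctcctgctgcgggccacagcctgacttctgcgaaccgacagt

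Added together, the 36 genes took the largest shares of UMIs in the myeloid and vascular classes and the smallest in ASTs, CPECs and the neuronal clusters, in each of the 3 libraries. Of the UMIs of macrophages they made up 1.66% in 2VO 1, against 4.52% in sham 1 and 3.05% in sham 2. Of those of microglia they made up 1.58% in 2VO 1, against 3.52% in sham 1 and 3.90% in sham 2, so in both myeloid classes 2VO was below both sham libraries. The share in ECs was 2.32% in 2VO 1, against 1.41% in sham 1 and 2.94% in sham 2. In VSMCs it was 2.09% in 2VO 1, against 1.92% in sham 1 and 1.99% in sham 2, the narrowest range of the vascular classes. For pericytes it was 1.03% in 2VO 1, against 0.903% in sham 1 and 2.72% in sham 2, and for VLMCs 1.68% in 2VO 1, against 0.601% in sham 1 and 1.22% in sham 2. In OLGs the share was 0.968% in 2VO 1, against 0.400% in sham 1 and 0.748% in sham 2. In OPCs it was 0.616% in 2VO 1, against 0.292% in sham 1 and 0.995% in sham 2, so that 2VO lay between the sham libraries here and above both in OLGs. In the neuronal clusters, the lowest class in both sham libraries, it was 0.375% in 2VO 1, against 0.188% in sham 1 and 0.212% in sham 2. The shares of ASTs (0.327% in 2VO 1, against 0.227% in sham 1 and 0.287% in sham 2) and CPECs (0.411% in 2VO 1, against 0.225% in sham 1 and 0.376% in sham 2) were close to it. The 2VO share lay below both sham shares in microglia and macrophages, between them in ECs, PERs, OPCs and NPCs, and above both in the other 7 classes. Sham 1 was below sham 2 in 12 of the 13 classes, macrophages being the exception. With 3 libraries the exact permutation test cannot give a p under 0.333, so no p is given for these sums.

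**Figure D1:**
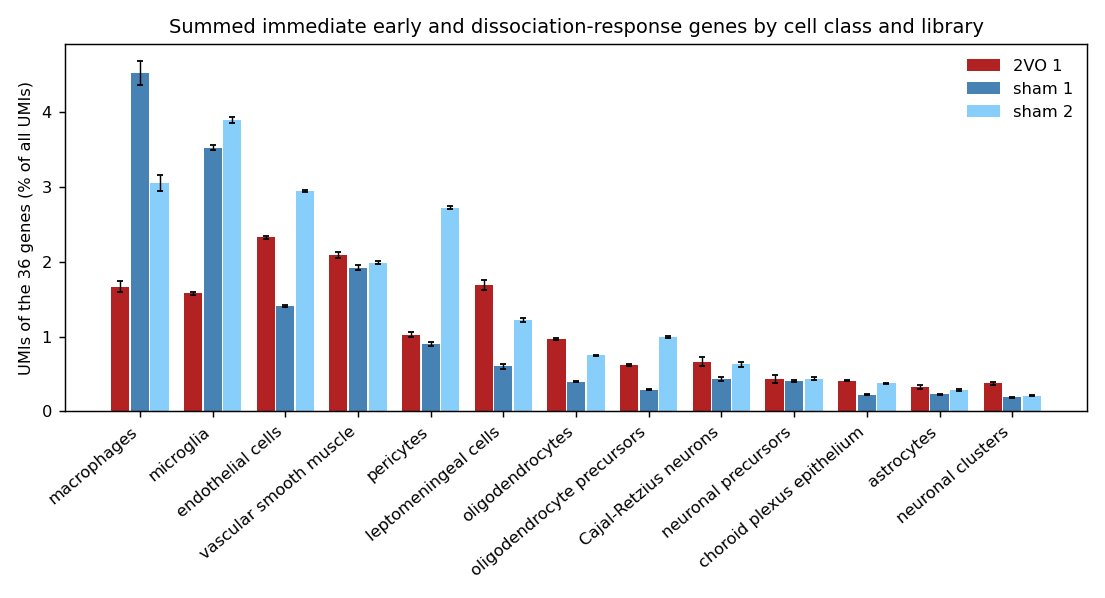
Summed UMIs of the 36 genes as a percent of all UMIs (vertical axis) in each of the 13 classes (horizontal axis), with a bar for each of 2VO 1, sham 1 and sham 2 and exact 95% binomial intervals that cover counting error only. Macrophages and microglia have their lowest bar in 2VO 1, at 1.66% and 1.58%, and pericytes have the widest gap in percentage points between the sham libraries, 0.903% in sham 1 and 2.72% in sham 2.

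The classes differed in which of the genes they held. By the mean over the 3 libraries of a gene's UMIs per 1000000 UMIs of the class (unscaled CPM), 11 genes were highest in microglia (Atf3, Dusp6, Egr1, Egr2, Ier5, Jun, Junb, Nfkbia, Rhob, Socs3 and Zfp36), 8 in macrophages (Cyr61, Dusp1, Gadd45g, Ier3, Jund, Klf10, Klf6 and Zfp36l1), 9 in VSMCs (Btg2, Fos, Fosb, Fosl2, Gadd45b, Maff, Nr4a1, Nr4a2 and Nr4a3) and 5 in ECs (Cdkn1a, Ier2, Klf2, Klf4 and Plk2). Klf2, a factor that keeps endothelium quiescent under flow, averaged 3878 ± 1588 unscaled CPM in ECs (SD, n = 3 libraries). Macrophages were next, at 2195 ± 1294, and their libraries overlapped those of ECs, while the lowest mean was 24.5 ± 12.4, in CPECs. Atf3, a stress-induced factor that pairs with JUN proteins, averaged 3183 ± 1904 unscaled CPM in microglia and 2950.4 ± 1773 in macrophages, which overlapped. In VSMCs its mean was 1349 ± 18.3, with nearly the same value in all 3 libraries, and in the neuronal clusters, the lowest, 34.3 ± 47.1. Fos, the founding member of its family, averaged 2827 ± 436 unscaled CPM in VSMCs. Its means of 2659.9 ± 1262 in macrophages, 2216 ± 1140.0 in microglia and 2192 ± 1393 in ECs came from libraries that overlapped those of VSMCs.

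All 3 NR4A genes, which encode orphan nuclear receptors, were highest in VSMCs. Nr4a1 averaged 735 ± 331 unscaled CPM there and 236 ± 151 in macrophages, the next class, without overlap. The activity genes had other leading classes. Arc, whose protein acts at synapses, had its highest mean in OLGs, at 57.7 ± 14.8 unscaled CPM, and its second in the neuronal clusters, at 30.6 ± 23.2, and these overlapped. Egr3, a factor induced by neuronal activity, was highest in the neuronal clusters, at 68.7 ± 25.0, and overlapped microglia, at 47.4 ± 21.2. Npas4, a factor switched on by calcium entry in neurons, had 65 UMIs in all, 10 in 2VO 1, 19 in sham 1 and 36 in sham 2, and passed the filter on low counts in none of the 13 classes.

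**Figure D2:**
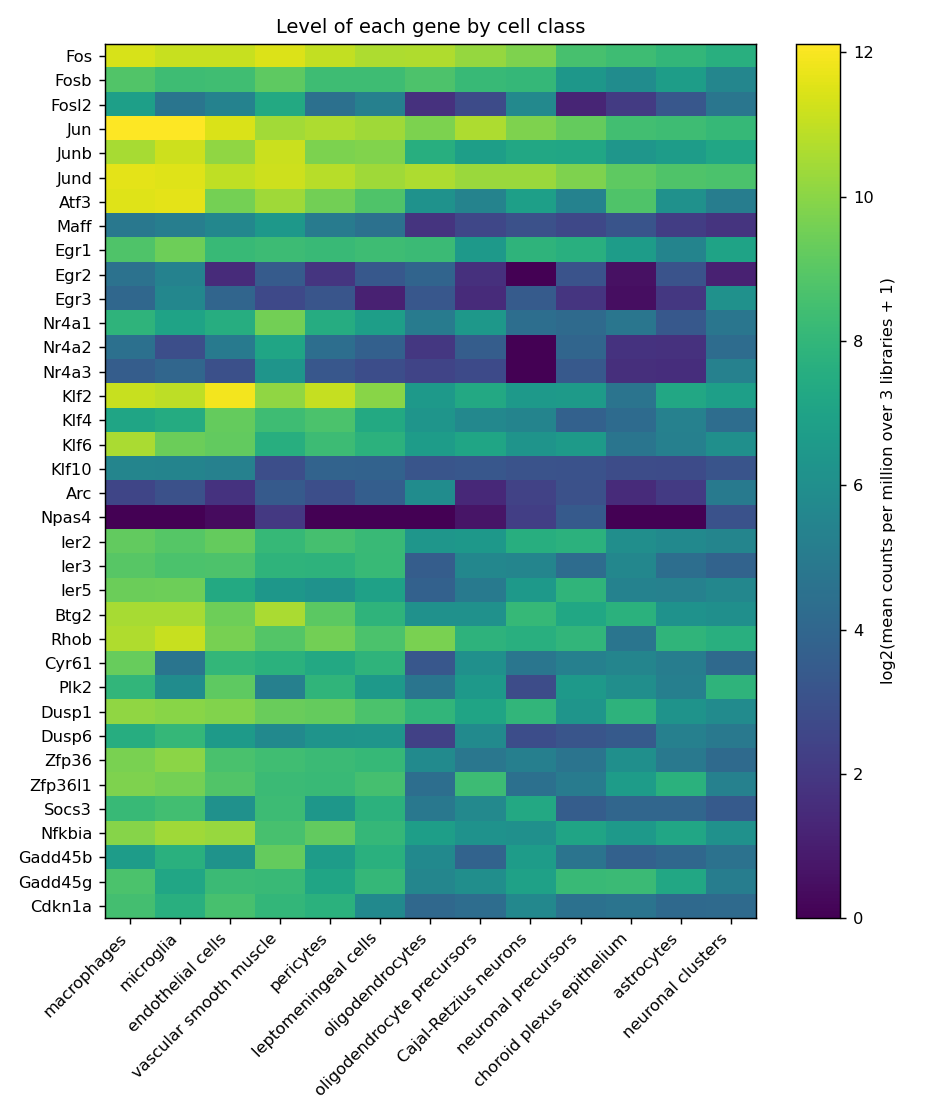
Heat map of the mean level of the 36 genes (rows, by gene group) in the 13 classes (columns, from the highest summed level to the lowest), as log2 of the mean unscaled CPM over 2VO 1, sham 1 and sham 2 plus 1. The columns of macrophages, microglia, VSMCs and ECs are bright in most rows, Klf2 reaches 3878 unscaled CPM in ECs, and Npas4 stays below 10 unscaled CPM in every class.

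The sham libraries were compared with each other first, since their distance sets the scale for 2VO. Counts were summed per class and scaled by TMM to counts per 1000000 (CPM), and genes that differed by more than 2-fold between sham 1 and sham 2 were counted. With 1 library on each side this comparison has no test. Over the 13 classes, 392 of 468 pairs of gene and class passed the filter on low counts, and of these 126 were more than 2-fold lower in sham 1 and 36 more than 2-fold higher. Over all genes, 6485 of 118670 pairs (5.46%) were lower and 5297 (4.46%) higher.

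The gap was widest in the oligodendrocyte lineage and in pericytes. In OPCs 21 of 32 tested response genes were more than 2-fold lower in sham 1, against 5.01% of all genes, with a median log2 ratio of sham 1 over sham 2 of -1.39, against -0.01 for all genes. In these precursors Fos had 353 CPM in sham 1 and 2253 CPM in sham 2. Fosb, a further FOS protein, had 42.4 CPM in sham 1 and 403 CPM in sham 2, and was among the 3 genes with the lowest ratio. The lowest was that of Klf2, with 23.8 CPM in sham 1 and 228 CPM in sham 2. Zfp36l1, an mRNA-decay protein, did not share the gap, since it had 285 CPM in sham 1 and 283 CPM in sham 2. In pericytes 21 of 30 genes were lower in sham 1, against 6.52% of all genes, with a median log2 ratio of -1.44. Socs3, which inhibits cytokine signals, had 17.6 CPM in sham 1 and 172 CPM in sham 2. Cdkn1a, which encodes the cell-cycle inhibitor p21, had 104 CPM in sham 1 and 519 CPM in sham 2. In OLGs 19 of 35 genes were lower, against 8.02% of all genes, with a median log2 ratio of -1.24. Junb had the lowest ratio there, with 28.6 CPM in sham 1 and 232 CPM in sham 2. Socs3 came next, with 3.98 CPM in sham 1 and 25.6 CPM in sham 2.

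Other classes followed with smaller shares. VLMCs had 14 of 28 genes lower in sham 1 (all genes 7.59%, median log2 ratio -0.98), ECs 12 of 35 (all genes 4.03%, median -0.78), and CPECs 10 of 33 (all genes 3.29%, median -0.65). The count was 8 of 26 in ASTs (all genes 3.59%), 5 of 22 in Cajal-Retzius neurons (7.01%), 5 of 22 in NPCs (3.94%) and 6 of 33 in the neuronal clusters (5.78%). VSMCs, microglia and macrophages did not lean this way. VSMCs had 4 of 33 genes lower in sham 1 (all genes 5.12%) and 6 higher (3.75%). Microglia had 1 of 35 lower (all genes 6.19%) and 8 higher (6.9%), and macrophages had 11 of 28 higher (12.4%). By gene, Fosb, Junb and Dusp1 were lower in sham 1 in all 13 classes, by more than 2-fold in 9 for Fosb, 7 for Junb and 5 for Dusp1. In ECs Fosb had 40.9 CPM in sham 1 and 378 CPM in sham 2. In CPECs it had 14.6 CPM in sham 1 and 108 CPM in sham 2, and in both classes it had the lowest ratio of the group.

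The gap was also present within single clusters, counted over the genes with at least 50 counts in the cluster. In the OPC cluster with most sham cells (577 in sham 1 and 260 in sham 2) 15 of 26 genes were more than 2-fold lower in sham 1, against 1.06% of all genes, with a median log2 ratio of -1.47. In the OLG cluster with most sham cells (866 in sham 1 and 693 in sham 2) the count was 11 of 25, against 2.16% of all genes, with a median of -0.89. The endothelial clusters differed between themselves. In the largest (579 cells in sham 1 and 908 in sham 2) 11 of 33 genes were lower in sham 1 (all genes 1.35%) and the median was -0.79, whereas in the second (400 and 615 cells) 3 of 31 were lower (all genes 1.86%) and the median was -0.05. Pericytes came from a large and a small cluster. In the large one (115 cells in sham 1 and 302 in sham 2) 10 of 24 genes were lower, against 3.22% of all genes, with a median of -0.95. The small one, which also carried 3 of 6 EC markers, held 15 cells of sham 1 and 149 of sham 2, and there the 36 genes made up 1.98% of the UMIs in sham 1 and 3.74% in sham 2.

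**Figure D3:**
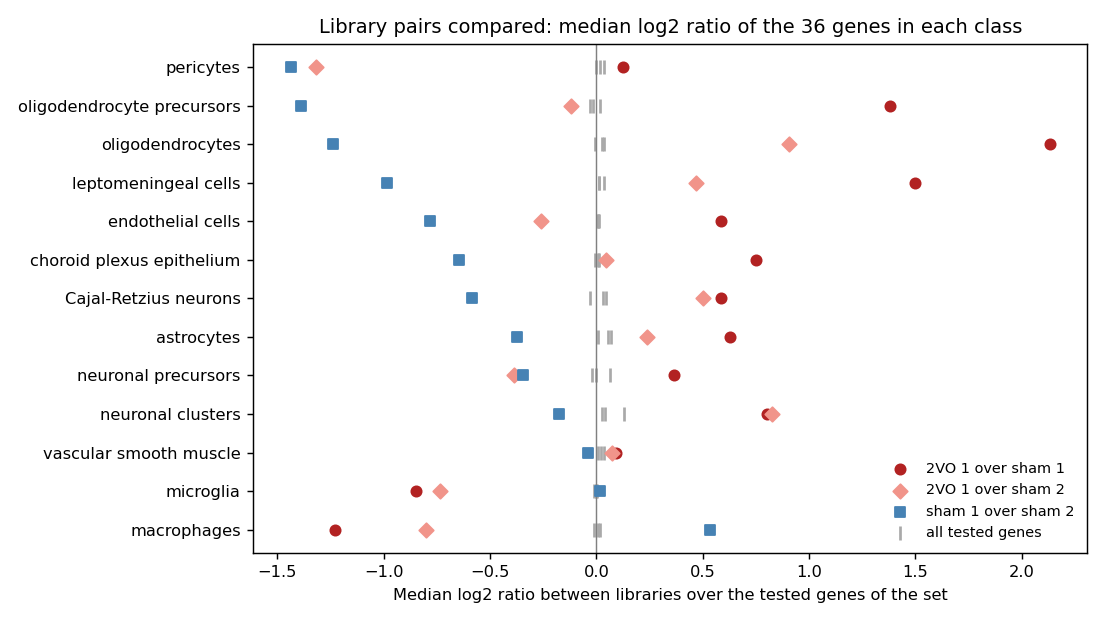
Median log2 ratio over the tested response genes (horizontal axis) in each class (vertical axis) for 2VO 1 over sham 1 (red circles), 2VO 1 over sham 2 (pink diamonds) and sham 1 over sham 2 (blue squares), with grey ticks for all tested genes of the class. For pericytes, OPCs and OLGs the sham ratio lies between -1.44 and -1.24, and microglia and macrophages are the classes where both 2VO ratios lie well below 0, while the grey ticks stay near 0.

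The 2VO library was compared with the sham libraries in the same class sums by edgeR's quasi-likelihood test, and a gene was called at a Benjamini-Hochberg adjusted p under 0.05 over all tested genes of the class and a fold over 1.5. With 3 libraries 1 residual degree of freedom is left, which comes from the sham pair, so the fit takes the spread of 2VO to equal theirs. Of the 392 tests, 24 were called higher in 2VO, against 2.39% of the tests of all genes, and 19 lower, against 3.28%, and 14 of the 19 were in microglia. All 43 kept their sign with either sham library left out, which leaves no test. A call already needs 2VO to lie away from the sham pair, so this sign is no separate check. DESeq2 called 6 higher and 5 lower, 8 of them among the 43. By class it called 2 of 33 in CPECs, where it called 606 of all 12810 genes. It called 2 higher and 1 lower of 35 in OLGs (1096 of 12583 genes) and 1 of 32 in OPCs (1333 of 12409 genes). In microglia it called 4 of 35 (43 of 10025 genes) and in ASTs 1 of 26 (7 of 10602 genes). In CPECs, OLGs and OPCs these counts were near or below the share of all genes. The edgeR shares of all genes, 2.39% higher and 3.28% lower, are the background for the gene groups as well. By group, the AP-1 family had 9 calls higher and 6 lower in 96 tests, and the EGR and NR4A factors 6 in 48, all higher. The KLF factors had 2 higher and 2 lower in 44, the rapid-response proteins 1 higher and 5 lower in 87, the feedback inhibitors 4 higher and 3 lower in 72, and the growth arrest and damage genes 2 higher and 2 lower in 39. Of 6 tests of the activity genes 1 was called, lower.

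Microglia, the immune cells that reside in brain tissue (392 in 2VO 1, 216 in sham 1 and 206 in sham 2), had most of the genes lower in 2VO. Of 35 tested, 14 were called lower, against 4.13% of all genes, and 2 higher, against 6.27%. The 2VO value was below both sham values for 23 of the 35, against 39.8% of all genes, and above both for 6, against 41.8%. Jun, the main partner of FOS, had 1507 CPM in 2VO 1, against 5729.9 CPM in sham 1 and 6693 CPM in sham 2 (log2 fold change -2.04 ± 0.25 (SE), adjusted p = 0.00145). Atf3 had 972 CPM in 2VO 1, against 5005 CPM in sham 1 and 4023 CPM in sham 2 (log2 fold change -2.22 ± 0.27 (SE), adjusted p = 0.00124). For both, the sham libraries were near each other and 2VO stood far below. Jund, a JUN protein that most cells hold at rest, had 1351 CPM in 2VO 1, against 3708 CPM in sham 1 and 4119.5 CPM in sham 2 (log2 fold change -1.53 ± 0.24 (SE), adjusted p = 0.00479). Junb, the inducible one, had 1259 CPM in 2VO 1, against 2646 CPM in sham 1 and 3492 CPM in sham 2 (log2 fold change -1.28 ± 0.26 (SE), adjusted p = 0.0143). Fos itself had 1158 CPM in 2VO 1, against 2024 CPM in sham 1 and 3715 CPM in sham 2 (log2 fold change -1.31 ± 0.34 (SE), adjusted p = 0.0385), and here sham 1 lay between the other libraries.

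The genes called lower in microglia included members of the KLF, rapid-response and inhibitor groups. Klf2 had 701 CPM in 2VO 1, against 2511 CPM in sham 1 and 2809 CPM in sham 2 (log2 fold change -1.92 ± 0.25 (SE), adjusted p = 0.00174). Klf6, a factor of injury responses, had 328 CPM in 2VO 1, against 900.3 CPM in sham 1 and 889 CPM in sham 2, and its sham libraries nearly coincided. Rhob, a small GTPase of endosomes, had 830.3 CPM in 2VO 1, against 3271 CPM in sham 1 and 2787 CPM in sham 2 (log2 fold change -1.87 ± 0.25 (SE), adjusted p = 0.00224). Btg2, an antiproliferative factor, had 602 CPM in 2VO 1, against 1645 CPM in sham 1 and 2448 CPM in sham 2. Ier5, a regulator of the heat shock response, had 267 CPM in 2VO 1, against 916 CPM in sham 1 and 1014 CPM in sham 2. Ier3, an NF-kappaB target that bears on cell survival, had 217 CPM in 2VO 1, against 543 CPM in sham 1 and 533 CPM in sham 2. The inhibitors were lower as well. Dusp1, which switches off MAP kinases, had 426 CPM in 2VO 1, against 997 CPM in sham 1 and 1690.1 CPM in sham 2. Dusp6, a phosphatase of ERK, had 132 CPM in 2VO 1, against 332 CPM in sham 1 and 364 CPM in sham 2. Zfp36, which speeds the decay of cytokine mRNAs, had 617 CPM in 2VO 1, against 1199.8 CPM in sham 1 and 1364 CPM in sham 2. Over these 9 genes the adjusted p-values ran from 0.00174 to 0.0235, and both sham libraries were above 2VO in each.

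Not all of the genes were lower in microglia. Cyr61, a matricellular protein typical of vascular cells and fibroblasts, was called higher on few counts, 67 UMIs in 2VO 1, 4 in sham 1 and 3 in sham 2 (log2 fold change 4.07 ± 0.48 (SE), adjusted p = 0.00112). Fosl2, a FOS relative that appears later than Fos, had 46.0 CPM in 2VO 1, against 17.2 CPM in sham 1 and 9.49 CPM in sham 2 (log2 fold change 1.74 ± 0.45 (SE), adjusted p = 0.0356). Fosb was not called, with 412 CPM in 2VO 1, against 149 CPM in sham 1 and 426 CPM in sham 2, where sham 1 was the low library. Egr1, a zinc finger factor, had 514 CPM in 2VO 1, against 681 CPM in sham 1 and 934 CPM in sham 2 (adjusted p = 0.147). Nr4a1 had 205 CPM in 2VO 1, against 155 CPM in sham 1 and 24.9 CPM in sham 2, and sham 2 was far below the other libraries. Plk2, a polo-like kinase, had 66.1 CPM in 2VO 1, against 92.8 CPM in sham 1 and 19.0 CPM in sham 2, again with sham 2 lowest. Arc had 12 UMIs in 2VO 1, 8 in sham 1 and 1 in sham 2.

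Other measures moved with the microglial values. The microglial markers summed to 6461 unscaled CPM in 2VO 1, against 12086 unscaled CPM in sham 1 and 12933 unscaled CPM in sham 2, and of these P2ry12 (log2 fold change -2.01), Cx3cr1 (-1.21) and Tmem119 (-1.07) were themselves called lower, while Siglech and Sall1 were not called. Per UMI of these markers, the 36 genes had 2.44 UMIs in 2VO 1, 2.92 in sham 1 and 3.01 in sham 2. The 6 EC markers, none at 0 in any library, summed to 2763 unscaled CPM in 2VO 1, against 339 unscaled CPM in sham 1 and 489 unscaled CPM in sham 2. The 4 red cell markers summed to 791 unscaled CPM in 2VO 1, against 2.71 unscaled CPM in sham 1 and 41.1 unscaled CPM in sham 2. Klf2, as the member most typical of ECs, was set against their markers. Its UMIs per EC-marker UMI in microglia were 0.276 in 2VO 1, 7 in sham 1 and 5.38 in sham 2. In ECs this ratio was 0.238 in 2VO 1, 0.148 in sham 1 and 0.333 in sham 2. T cell markers in microglia summed to 103 unscaled CPM in 2VO 1, against 0.904 in sham 1 and 15.6 in sham 2. Macrophage markers summed to 699 unscaled CPM in 2VO 1, against 258 in sham 1 and 179 in sham 2. NPC markers went the other way, with 148 unscaled CPM in 2VO 1, against 332 in sham 1 and 218 in sham 2. The part of other cells, or of their RNA, in the microglial values was not tested. At resolution 2.0 the microglia of the libraries did not come from the same clusters. A cluster with a median of 1791 UMIs held 369 cells of 2VO 1, 70 of sham 1 and 71 of sham 2. Another, with a median of 4946.5 UMIs, held 23 cells of 2VO 1, 146 of sham 1 and 135 of sham 2. The calls were made on both together, and the part of these clusters in them was not tested. With a minimum of 200 genes per barcode in place of 650, 0 of the 14 were called by edgeR, though all 14 kept a log2 fold change under 0, and DESeq2 called 4 of them, Atf3, Jun, Klf2 and Rhob.

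**Figure D4:**
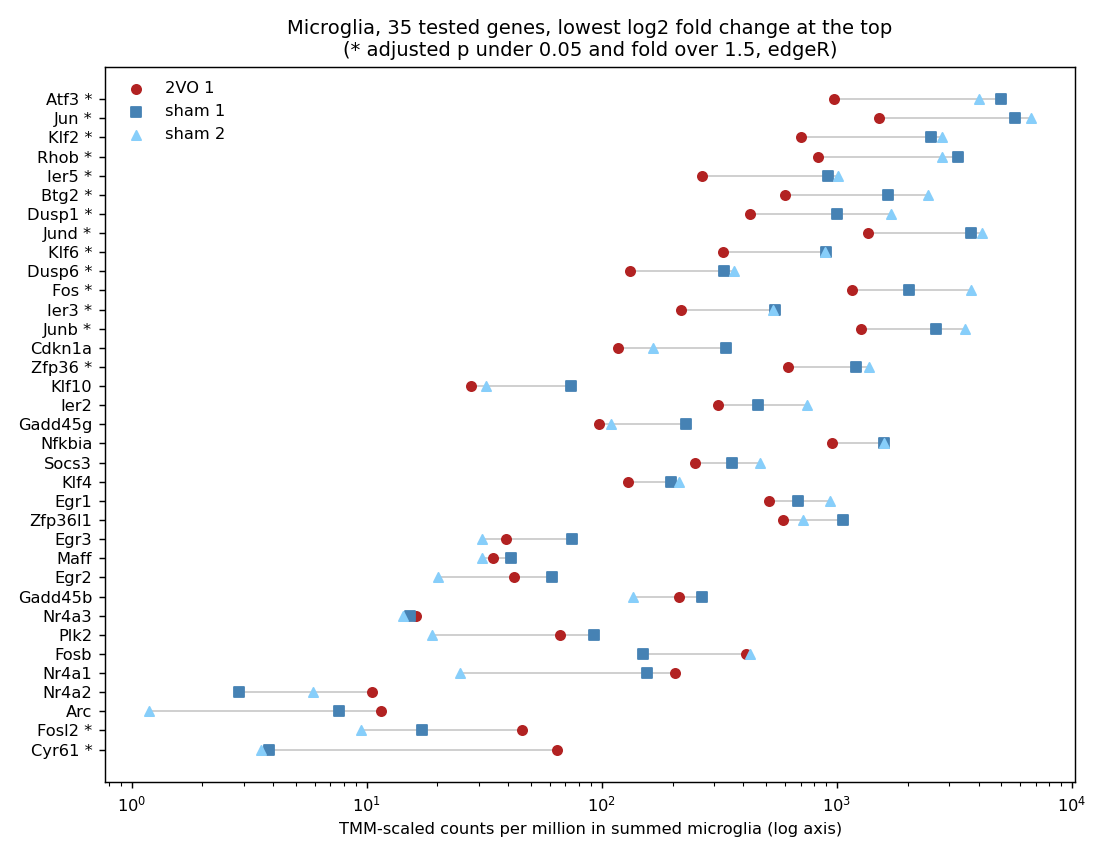
TMM-scaled CPM in summed microglia (horizontal log axis) of the 35 tested genes (vertical axis, lowest log2 fold change at the top, called genes with an asterisk) for 2VO 1 (circles), sham 1 (squares) and sham 2 (triangles). In the upper rows the circle lies left of both sham symbols, as for Atf3 with 972 CPM in 2VO 1, against 5005 CPM in sham 1 and 4023 CPM in sham 2, and in the bottom row, Cyr61, it lies to the right of both.

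Macrophages, here cells with markers of border-associated macrophages, were few (41 in 2VO 1, 19 in sham 1 and 23 in sham 2). Of 28 tested genes, 21 were lower in 2VO than in either sham library, against 35.3% of all genes, and 1 was higher than in either, against 37.6%. Gadd45g, a growth arrest gene, was the 1 gene called lower, where 0.611% of all genes were called lower. It had 190.0 CPM in 2VO 1, against 905 CPM in sham 1 and 412 CPM in sham 2 (log2 fold change -1.76 ± 0.57 (SE), adjusted p = 0.0486). Jun had 2649.6 CPM in 2VO 1, against 8321 CPM in sham 1 and 5319 CPM in sham 2 (adjusted p = 0.333). Jund had 1769.8 CPM in 2VO 1, against 5918 CPM in sham 1 and 4070.1 CPM in sham 2 (adjusted p = 0.257). Fos had 1689.8 CPM in 2VO 1, against 4717 CPM in sham 1 and 3533 CPM in sham 2 (adjusted p = 0.358). In these AP-1 genes 2VO was the lowest library and sham 1 the highest. Atf3 had 1299.8 CPM in 2VO 1, against 5536 CPM in sham 1 and 4195 CPM in sham 2 (adjusted p = 0.0975). Egr1 had 350.0 CPM in 2VO 1, against 905 CPM in sham 1 and 375 CPM in sham 2, with 2VO close to sham 2. Arc had 0 UMIs in 2VO 1, 1 in sham 1 and 0 in sham 2. Other measures moved here too. EC markers summed to 2691 unscaled CPM in 2VO 1, against 28.7 unscaled CPM in sham 1 and 77.3 unscaled CPM in sham 2 in these cells. Per UMI of the macrophage markers, the 36 genes had 1.93 UMIs in 2VO 1, 2.94 in sham 1 and 2.05 in sham 2, and their part was not tested.

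In ECs, which line the blood vessels (1168 in 2VO 1, 1010 in sham 1 and 1584 in sham 2), 2 of 35 tested genes were called, both higher in 2VO, against 1.62% of all genes called higher. Nr4a1 had 293 CPM in 2VO 1, against 111 CPM in sham 1 and 153 CPM in sham 2 (log2 fold change 1.15 ± 0.22 (SE), adjusted p = 0.0454). Fosl2 had 64.6 CPM in 2VO 1, against 24.9 CPM in sham 1 and 30.7 CPM in sham 2 (log2 fold change 1.21 ± 0.20 (SE), adjusted p = 0.032). In both, the sham libraries were near each other and below 2VO. The most abundant genes of the group lay between the sham libraries instead. Klf2 had 3566 CPM in 2VO 1, against 2372 CPM in sham 1 and 5809 CPM in sham 2. Jun had 2284 CPM in 2VO 1, against 2084 CPM in sham 1 and 4098 CPM in sham 2. Fos had 2430.1 CPM in 2VO 1, against 657 CPM in sham 1 and 3534 CPM in sham 2. Sham 1 was the low library and sham 2 the high one in all 3. Egr1 had 494 CPM in 2VO 1, against 95.8 CPM in sham 1 and 253 CPM in sham 2 (adjusted p = 0.133), above both sham libraries. Atf3 had 607 CPM in 2VO 1, against 431 CPM in sham 1 and 1261 CPM in sham 2, and Arc 14 UMIs in 2VO 1, 7 in sham 1 and 7 in sham 2. Over all 35 genes the 2VO value was above both sham values for 12, against 40.3% of all genes, below both for 8, against 39.3%, and between them for 15, and neither the count above nor the count below exceeded its share. The endothelial clusters differed here, counted over genes with at least 50 counts. In the second (582 cells in 2VO 1) 24 of 31 were above both, against 3225 of 7922 for all genes. In the largest (425 cells in 2VO 1) 12 of 33 were, against 4061 of 9426. A smaller endothelial cluster, led by Lcn2 and Lrg1, held 130 of the ECs of 2VO 1, 17 of sham 1 and 39 of sham 2. Its part in the EC calls was not tested.

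In VSMCs, the contractile cells of arteries and arterioles (142 in 2VO 1, 99 in sham 1 and 259 in sham 2), the AP-1 genes were not called. Fos had 2608 CPM in 2VO 1, against 2545 CPM in sham 1 and 3516 CPM in sham 2 (adjusted p = 0.73). Junb had 2396 CPM in 2VO 1, against 2246 CPM in sham 1 and 2346 CPM in sham 2 (adjusted p = 0.926). Jund had 2078 CPM in 2VO 1, against 2482 CPM in sham 1 and 2719 CPM in sham 2 (adjusted p = 0.568). None of these was called, and the Fos value of 2VO was close to that of sham 1. Atf3 had 1319 CPM in 2VO 1, against 1395 CPM in sham 1 and 1408 CPM in sham 2 (adjusted p = 0.887). Jun, also not called, had 1049 CPM in 2VO 1, against 1535 CPM in sham 1 and 1646 CPM in sham 2 (adjusted p = 0.287). Of 33 tested genes 1 was called, Nr4a2, which was higher in 2VO, where 0.437% of all genes were called higher. It had 274 CPM in 2VO 1, against 97.2 CPM in sham 1 and 36.5 CPM in sham 2 (log2 fold change 2.11 ± 0.37 (SE), adjusted p = 0.0146). Its relative Nr4a3 had 133 CPM in 2VO 1, against 82.6 CPM in sham 1 and 18.2 CPM in sham 2 (adjusted p = 0.179). Fosl2 had 299.7 CPM in 2VO 1, against 145 CPM in sham 1 and 44.7 CPM in sham 2 (adjusted p = 0.0695). In all 3 of these sham 1 lay between 2VO and sham 2. Egr1 had 523 CPM in 2VO 1, against 133 CPM in sham 1 and 287 CPM in sham 2 (adjusted p = 0.0772), and Arc 9 UMIs in 2VO 1, 7 in sham 1 and 6 in sham 2. The VSMC markers themselves summed to 31251 unscaled CPM in 2VO 1, against 47177 in sham 1 and 47668 in sham 2. Per UMI of these markers, the 36 genes had 0.668 UMIs in 2VO 1, 0.407 in sham 1 and 0.417 in sham 2. The part of this difference in the VSMC values was not tested.

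Pericytes, the mural cells of capillaries (167 in 2VO 1, 130 in sham 1 and 451 in sham 2), had 0 of 30 genes called by edgeR in either direction, as were 0% of all genes. At an unadjusted p under 0.05 there were 2 of the 30, a count not set against all genes, so nothing is read from it. DESeq2 called 0 of the 30, and 1 of all genes. Fos had 1452 CPM in 2VO 1, against 783 CPM in sham 1 and 4217 CPM in sham 2. Jun had 824 CPM in 2VO 1, against 737 CPM in sham 1 and 3498 CPM in sham 2. Klf2 had 913 CPM in 2VO 1, against 1077 CPM in sham 1 and 4676 CPM in sham 2. In these class sums sham 2 stood far above the other libraries for all 3 genes, and those libraries were closer to each other. Atf3 had 196 CPM in 2VO 1, against 549 CPM in sham 1 and 1594 CPM in sham 2. Egr1 had 349.8 CPM in 2VO 1, against 241 CPM in sham 1 and 316 CPM in sham 2, without this gap, and Arc 4 UMIs in 2VO 1, 5 in sham 1 and 3 in sham 2. The 2VO value was below both sham values for 12 of the 30 genes, near the 39.3% of all genes, and above both for 4, against 38.9%. In the large pericyte cluster (158 cells in 2VO 1, 115 in sham 1 and 302 in sham 2) the 36 genes made up 0.663% in 2VO 1, against 0.429% in sham 1 and 0.721% in sham 2 of UMIs, with 2VO again between the sham libraries. Klf2 had 219 unscaled CPM in 2VO 1 there, against 129 in sham 1 and 180 in sham 2. Fos had 1001, against 441 and 1095, and Jun 587, against 465 and 934. The small cluster held 9 cells of 2VO 1, 15 of sham 1 and 149 of sham 2. EC markers over all pericytes summed to 2740 unscaled CPM in 2VO 1, against 3032 in sham 1 and 7340 in sham 2. Their part and that of the small cluster were not tested.

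VLMCs, fibroblasts of the leptomeninges and vessel walls (33 in 2VO 1, 44 in sham 1 and 121 in sham 2), had 2 of 28 genes called, both higher in 2VO, against 1.26% of all genes called higher. Gadd45g had 618 CPM in 2VO 1, against 79.0 CPM in sham 1 and 232 CPM in sham 2 (log2 fold change 1.91 ± 0.42 (SE), adjusted p = 0.00866). Nr4a1 had 254 CPM in 2VO 1, against 36.9 CPM in sham 1 and 86.1 CPM in sham 2 (log2 fold change 1.91 ± 0.44 (SE), adjusted p = 0.0132). Sham 1 was the lowest library in both, and in most genes of this class. Fos had 2609 CPM in 2VO 1, against 479.5 CPM in sham 1 and 2451 CPM in sham 2, with 2VO close to sham 2. Jun had 2180.4 CPM in 2VO 1, against 912 CPM in sham 1 and 1541 CPM in sham 2. Jund had 2363 CPM in 2VO 1, against 722 CPM in sham 1 and 1524 CPM in sham 2. Neither JUN gene was called, although 2VO was above both sham libraries. Atf3 had 714 CPM in 2VO 1, against 121 CPM in sham 1 and 740.4 CPM in sham 2. Egr1 had 436 CPM in 2VO 1, against 258 CPM in sham 1 and 448 CPM in sham 2. Socs3 had 59 UMIs in 2VO 1, 0 in sham 1 and 145 in sham 2. The 2VO value was above both sham values for 19 of the 28 genes, against 36.5% of all genes. Arc had 4 UMIs in 2VO 1, 0 in sham 1 and 4 in sham 2. EC markers in VLMCs summed to 1926 unscaled CPM in 2VO 1, against 627 in sham 1 and 575 in sham 2. OLG markers summed to 1542 unscaled CPM in 2VO 1, against 265 in sham 1 and 461 in sham 2. Pericyte markers went the other way, with 1309 unscaled CPM in 2VO 1, against 2508 in sham 1 and 3192 in sham 2. The part of RNA from other cells in the VLMC calls was not tested.

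In OLGs, the myelin-forming cells (852 in 2VO 1, 1567 in sham 1 and 1086 in sham 2), 28 of 35 tested genes had a 2VO value above both sham values, against 43.1% of all genes, 2 below both, against 43%, and 5 between. The median log2 ratio of 2VO over sham 1 was 2.13 and that of 2VO over sham 2 was 0.91, against 0.03 and 0.03 for all genes. Yet edgeR called 0 of the 35, and 0% of all genes. At an unadjusted p under 0.05 there were 13 of the 35, a count not set against all genes, so nothing is read from it. DESeq2 called Atf3 and Btg2 higher and Rhob lower, where it called 1096 of all 12583 tested genes in either direction. Atf3 had 132 CPM in 2VO 1, against 23.5 CPM in sham 1 and 38.8 CPM in sham 2 (edgeR adjusted p = 0.0737). Btg2, named after its values were seen, had 109 CPM in 2VO 1, against 26.3 CPM in sham 1 and 62.0 CPM in sham 2 (edgeR adjusted p = 0.192). Egr1 had 543 CPM in 2VO 1, against 76.4 CPM in sham 1 and 220.0 CPM in sham 2 (adjusted p = 0.143). In each of them 2VO was the highest library and sham 1 the lowest. Fosb, named after its values as well, had 853 CPM in 2VO 1, against 48.5 CPM in sham 1 and 246 CPM in sham 2. Fos had 2018 CPM in 2VO 1, against 636 CPM in sham 1 and 2019 CPM in sham 2, with 2VO level with sham 2. Jun had 891 CPM in 2VO 1, against 700.5 CPM in sham 1 and 904 CPM in sham 2, also near sham 2. Rhob and Jund went against this order. Rhob had 566 CPM in 2VO 1, against 978 CPM in sham 1 and 972 CPM in sham 2 (edgeR adjusted p = 0.0939). Jund had 1197 CPM in 2VO 1, against 1403 CPM in sham 1 and 2235 CPM in sham 2, and was lowest in 2VO as well. Arc had 56.3 CPM in 2VO 1, against 44.8 CPM in sham 1 and 70.7 CPM in sham 2, and the sham libraries enclosed 2VO.

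The OLGs of the libraries did not come from the same clusters. Of the 852 OLGs of 2VO 1, 598 were in a cluster that held 20 cells of sham 1 and 38 of sham 2, and there the 36 genes made up 0.900% in 2VO 1, against 0.278% in sham 1 and 0.703% in sham 2 of UMIs. In the cluster with most sham cells (94 cells in 2VO 1, 866 in sham 1 and 693 in sham 2) they made up 1.04% in 2VO 1, against 0.382% in sham 1 and 0.635% in sham 2, and 24 of 25 genes with at least 50 counts had a 2VO value above both sham values, against 50.4% of all genes. In another OLG cluster (23 cells in 2VO 1, 269 in sham 1 and 35 in sham 2) they made up 0.231% in 2VO 1, against 0.320% in sham 1 and 0.600% in sham 2, and 5 of 22 genes were above both, against 51.5% of all genes. The clusters thus differed in where 2VO stood. EC markers summed to 821 unscaled CPM in 2VO 1, against 52.1 unscaled CPM in sham 1 and 217 unscaled CPM in sham 2 in OLGs. Red cell markers summed to 495 unscaled CPM in 2VO 1, against 0.993 unscaled CPM in sham 1 and 19.6 unscaled CPM in sham 2, and the part of these cells in the OLG values was not tested.

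OPCs, the precursors of oligodendrocytes (485 in 2VO 1, 773 in sham 1 and 326 in sham 2), had 2 of 32 genes called, both higher in 2VO, which is no larger a share than the 9.68% of all genes called higher. Nr4a1 had 131 CPM in 2VO 1, against 51.3 CPM in sham 1 and 66.0 CPM in sham 2 (log2 fold change 1.18 ± 0.22 (SE), adjusted p = 0.015). Zfp36 had 50.8 CPM in 2VO 1, against 6.37 CPM in sham 1 and 17.9 CPM in sham 2 (log2 fold change 2.25 ± 0.50 (SE), adjusted p = 0.0196). Both were above both sham libraries, whereas 5 of the 8 AP-1 genes lay between them. Jun had 993 CPM in 2VO 1, against 858 CPM in sham 1 and 2947 CPM in sham 2. Fos had 936 CPM in 2VO 1, against 353 CPM in sham 1 and 2253 CPM in sham 2. Jund had 759 CPM in 2VO 1, against 738 CPM in sham 1 and 2336 CPM in sham 2. For Jun and Jund 2VO was near sham 1, and sham 2 stood apart. Fosb had 376 CPM in 2VO 1, against 42.4 CPM in sham 1 and 403 CPM in sham 2, with 2VO near sham 2. Egr1 had 157 CPM in 2VO 1, against 21.0 CPM in sham 1 and 91.7 CPM in sham 2 (adjusted p = 0.115). Atf3 had 56.4 CPM in 2VO 1, against 20.5 CPM in sham 1 and 44.9 CPM in sham 2, and Arc 3 UMIs in 2VO 1, 11 in sham 1 and 3 in sham 2. Of the 32 genes, 18 had a 2VO value between the sham values and the other 14 above both, near the 42.9% of all genes. Here too the clusters differed, since 384 of 485 cells of 2VO 1 were in a cluster with 46 cells of sham 1 and 39 of sham 2, where the 36 genes made up 0.647% in 2VO 1, against 0.450% in sham 1 and 1.35% in sham 2 of UMIs. In the cluster with most sham cells (66 cells in 2VO 1, 577 in sham 1 and 260 in sham 2) they made up 0.657% in 2VO 1, against 0.308% in sham 1 and 1.07% in sham 2. EC markers summed to 1126 unscaled CPM in 2VO 1, against 117 unscaled CPM in sham 1 and 331 unscaled CPM in sham 2 in OPCs, and their part was not tested.

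In the neuronal clusters (47 in 2VO 1, 97 in sham 1 and 309 in sham 2) 3 of 33 tested genes were called higher in 2VO, against 0.847% of all genes, and 1 lower, against 0.292%. The gene called lower was Arc, with 1 UMI in 2VO 1, 32 in sham 1 and 96 in sham 2, or 3.70 CPM in 2VO 1, against 38.3 CPM in sham 1 and 57.2 CPM in sham 2 (log2 fold change -3.67 ± 1.03 (SE), adjusted p = 0.0381). Atf3 was called higher, with 81.3 CPM in 2VO 1, against 5.99 CPM in sham 1 and 9.53 CPM in sham 2 (log2 fold change 3.31 ± 0.64 (SE), adjusted p = 0.000195). Klf2 had 244 CPM in 2VO 1, against 14.4 CPM in sham 1 and 73.2 CPM in sham 2 (log2 fold change 2.40 ± 0.49 (SE), adjusted p = 0.000572). Zfp36l1 had 77.6 CPM in 2VO 1, against 21.6 CPM in sham 1 and 10.7 CPM in sham 2 (log2 fold change 2.33 ± 0.59 (SE), adjusted p = 0.0136). In these 3 genes 2VO stood far above both sham libraries. Fos had 329 CPM in 2VO 1, against 82.7 CPM in sham 1 and 186 CPM in sham 2 (adjusted p = 0.236). Jun had 462 CPM in 2VO 1, against 127 CPM in sham 1 and 242 CPM in sham 2 (adjusted p = 0.249). Egr1, which neurons also induce with activity, had 111 CPM in 2VO 1, against 149 CPM in sham 1 and 127 CPM in sham 2. Fos and Jun were thus highest in 2VO and Egr1 lowest, without a call. Npas4 had 2 UMIs in 2VO 1, 3 in sham 1 and 20 in sham 2. The 2VO values rest on 47 cells, and DESeq2 left 32 of the 33 genes without an adjusted p. The make-up of the class differed between libraries. Its glutamatergic cluster held 7 of the 47 cells in 2VO 1, 38 of 97 in sham 1 and 91 of 309 in sham 2. GABAergic markers summed to 2004 unscaled CPM in 2VO 1, against 3075 in sham 1 and 447 in sham 2. Glutamatergic markers summed to 3114 in 2VO 1, against 3566 in sham 1 and 6590 in sham 2. The part of this make-up in the calls was not tested.

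Markers of other cells were higher in the neuronal clusters of 2VO as well. EC markers summed to 1230.1 unscaled CPM in 2VO 1, against 169 unscaled CPM in sham 1 and 325 unscaled CPM in sham 2. Microglial markers summed to 238 unscaled CPM in 2VO 1, against 41.7 unscaled CPM in sham 1 and 55.2 unscaled CPM in sham 2. Red cell markers summed to 218 unscaled CPM in 2VO 1, against 0 unscaled CPM in sham 1 and 47.8 unscaled CPM in sham 2. The UMIs of Klf2 per EC-marker UMI were 0.216 in 2VO 1, 0.0896 in sham 1 and 0.186 in sham 2 in these clusters, beside the EC values given above. The part of RNA from other cells in the neuronal calls was not tested.

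Cajal-Retzius neurons, reelin-secreting cells near the hippocampal surface (28 in 2VO 1, 50 in sham 1 and 29 in sham 2), had 4 of 22 genes called, all higher in 2VO, against 2.63% of all genes called higher. Fosb had 638 CPM in 2VO 1, against 88.3 CPM in sham 1 and 171 CPM in sham 2 (log2 fold change 2.37 ± 0.38 (SE), adjusted p = 3.01e-07). Atf3 had 252 CPM in 2VO 1, against 72.2 CPM in sham 1 and 47.8 CPM in sham 2 (log2 fold change 2.00 ± 0.55 (SE), adjusted p = 0.0125). Egr1 had 420.1 CPM in 2VO 1, against 156 CPM in sham 1 and 205 CPM in sham 2 (log2 fold change 1.24 ± 0.40 (SE), adjusted p = 0.0356). In all of these both sham libraries were well below 2VO. Klf2 had 202 CPM in 2VO 1, against 36.1 CPM in sham 1 and 75.1 CPM in sham 2 (log2 fold change 1.95 ± 0.61 (SE), adjusted p = 0.0285). The more abundant AP-1 genes were not called. Fos had 1075 CPM in 2VO 1, against 758 CPM in sham 1 and 1201 CPM in sham 2. Jun had 941 CPM in 2VO 1, against 726 CPM in sham 1 and 1331 CPM in sham 2. Jund had 1075 CPM in 2VO 1, against 1388 CPM in sham 1 and 1918 CPM in sham 2, lowest in 2VO. Fos and Jun of 2VO lay between the sham libraries. Arc had 0 UMIs in 2VO 1, 2 in sham 1 and 1 in sham 2, and Npas4 0 UMIs in 2VO 1, 0 in sham 1 and 2 in sham 2. EC markers summed to 681 unscaled CPM in 2VO 1, against 14.0 unscaled CPM in sham 1 and 245 unscaled CPM in sham 2 in this class. Red cell markers summed to 789 unscaled CPM in 2VO 1, against 3.51 unscaled CPM in sham 1 and 11.4 unscaled CPM in sham 2, and their part was not tested.

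NPCs, cells with markers of neural progenitors and young neurons (30 in 2VO 1, 170 in sham 1 and 73 in sham 2), had calls in both directions among 22 tested genes, 2 higher, against 1.3% of all genes, and 3 lower, against 5.41%. They came from a large cluster led by Igfbpl1, Neurod1 and Sox11 (29 cells in 2VO 1, 125 in sham 1 and 63 in sham 2) and a small one with Dlx1, Dlx2 and Sp9 among its leading genes (1 cell in 2VO 1, 45 in sham 1 and 10 in sham 2). Fos had 594 CPM in 2VO 1, against 236 CPM in sham 1 and 286 CPM in sham 2 (log2 fold change 1.19 ± 0.27 (SE), adjusted p = 0.0257). Fosb had 193 CPM in 2VO 1, against 11.7 CPM in sham 1 and 19.3 CPM in sham 2 (log2 fold change 3.74 ± 0.66 (SE), adjusted p = 0.00703). These FOS genes were high in 2VO and low in both sham libraries. Jund had 460.1 CPM in 2VO 1, against 1252 CPM in sham 1 and 1129 CPM in sham 2 (log2 fold change -1.37 ± 0.22 (SE), adjusted p = 0.00386). Ier2, a rapid-response nuclear protein, had 89.1 CPM in 2VO 1, against 277 CPM in sham 1 and 349.8 CPM in sham 2 (log2 fold change -1.80 ± 0.43 (SE), adjusted p = 0.0311). Gadd45g, which neural precursors use when they leave the cell cycle, had 134 CPM in 2VO 1, against 349.7 CPM in sham 1 and 499 CPM in sham 2 (log2 fold change -1.65 ± 0.40 (SE), adjusted p = 0.0338). All 3 were low in 2VO, with the sham libraries close to each other. Jun had 430.4 CPM in 2VO 1, against 962 CPM in sham 1 and 565 CPM in sham 2. Egr1 had 193 CPM in 2VO 1, against 155 CPM in sham 1 and 264 CPM in sham 2. Atf3 had 74.2 CPM in 2VO 1, against 31.8 CPM in sham 1 and 8.26 CPM in sham 2. None of these was called, and Egr1 of 2VO lay between the sham libraries. Npas4 had 1 UMI in 2VO 1, 11 in sham 1 and 1 in sham 2, and Arc 1 UMI in 2VO 1, 4 in sham 1 and 0 in sham 2. The 2VO values rest on 30 cells. EC markers in NPCs summed to 1076 unscaled CPM in 2VO 1, against 73.1 unscaled CPM in sham 1 and 166 unscaled CPM in sham 2.

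CPECs, which secrete the cerebrospinal fluid (449 in 2VO 1, 590 in sham 1 and 315 in sham 2), had 5 of 33 genes called, all higher in 2VO, against 2.28% of all genes called higher. Nr4a1 had 41.5 CPM in 2VO 1, against 15.8 CPM in sham 1 and 15.5 CPM in sham 2 (log2 fold change 1.40 ± 0.20 (SE), adjusted p = 0.000754), and its sham libraries nearly coincided. Gadd45b, a stress-induced growth arrest gene, had 19.9 CPM in 2VO 1, against 6.77 CPM in sham 1 and 8.22 CPM in sham 2 (log2 fold change 1.43 ± 0.23 (SE), adjusted p = 0.00166). Junb had 131 CPM in 2VO 1, against 28.6 CPM in sham 1 and 68.6 CPM in sham 2 (log2 fold change 1.46 ± 0.31 (SE), adjusted p = 0.00707). The other genes called encode inhibitors of the response. Socs3 had 21.6 CPM in 2VO 1, against 8.77 CPM in sham 1 and 12.5 CPM in sham 2 (log2 fold change 1.06 ± 0.24 (SE), adjusted p = 0.0103). Nfkbia, which encodes the inhibitor of NF-kappaB, had 128 CPM in 2VO 1, against 57.0 CPM in sham 1 and 86.9 CPM in sham 2 (log2 fold change 0.83 ± 0.24 (SE), adjusted p = 0.0349). In all 5 genes the 2VO value was above both sham values. Fos had 418 CPM in 2VO 1, against 156 CPM in sham 1 and 383 CPM in sham 2. Jund had 502 CPM in 2VO 1, against 449 CPM in sham 1 and 704 CPM in sham 2. Jun had 361 CPM in 2VO 1, against 288 CPM in sham 1 and 399 CPM in sham 2. Sham 1 was the lowest library for these 3. Atf3 had 338 CPM in 2VO 1, against 268 CPM in sham 1 and 751 CPM in sham 2. Egr1 had 114 CPM in 2VO 1, against 56.3 CPM in sham 1 and 138 CPM in sham 2. Over Fos, Jun, Jund, Atf3 and Egr1 the adjusted p-values ran from 0.264 to 0.895. Arc had 21 UMIs in 2VO 1, 29 in sham 1 and 14 in sham 2. The CPEC markers themselves summed to 4608 unscaled CPM in 2VO 1, against 2803 unscaled CPM in sham 1 and 2347 unscaled CPM in sham 2. Markers of other cells moved in CPECs too. EC markers summed to 212 unscaled CPM in 2VO 1, against 69.8 in sham 1 and 90.2 in sham 2. Microglial markers summed to 57.7 unscaled CPM in 2VO 1, against 23.9 in sham 1 and 16.3 in sham 2. Ependymal markers went the other way, with 199 unscaled CPM in 2VO 1, against 294 in sham 1 and 268 in sham 2. The part of RNA from other cells in the CPEC calls was not tested.

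In ASTs, the glia that clear glutamate and potassium (39 in 2VO 1, 212 in sham 1 and 236 in sham 2), 1 of 26 genes was called, Fosb, which was higher in 2VO, where 0.0472% of all genes were called higher. Fosb had 256 CPM in 2VO 1, against 16.7 CPM in sham 1 and 34.2 CPM in sham 2 (log2 fold change 3.30 ± 0.41 (SE), adjusted p = 0.0245), and DESeq2 called it too. Fos had 328 CPM in 2VO 1, against 167 CPM in sham 1 and 276 CPM in sham 2. Jun had 341 CPM in 2VO 1, against 305 CPM in sham 1 and 354 CPM in sham 2. Jund had 302 CPM in 2VO 1, against 454 CPM in sham 1 and 571 CPM in sham 2. None of these 3 was called, and Jund was lowest in 2VO. Atf3 had 65.6 CPM in 2VO 1, against 69.3 CPM in sham 1 and 71.8 CPM in sham 2, nearly the same in all libraries. Egr1 had 65.6 CPM in 2VO 1, against 44.2 CPM in sham 1 and 16.8 CPM in sham 2. Arc had 0 UMIs in 2VO 1, 5 in sham 1 and 9 in sham 2, and the 2VO values rest on 39 cells. EC markers in ASTs summed to 692 unscaled CPM in 2VO 1, against 243 in sham 1 and 479 in sham 2. Microglial markers summed to 295 unscaled CPM in 2VO 1, against 56.3 in sham 1 and 111 in sham 2. OLG markers went the other way, with 425 unscaled CPM in 2VO 1, against 740 in sham 1 and 779 in sham 2. The part of RNA from other cells in the AST values was not tested.

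Read gene by gene, Nr4a1 was called in the most classes, higher in 4 of the 12 that tested it (CPECs, ECs, OPCs and VLMCs). Its 2VO value was above both sham values in 10 of the 12 and below both in 0. Over all genes and classes 40.6% of tests were above both and 41.3% below both. Fosl2 was above both in 10 of 11 classes and Nr4a3 in 6 of 7. Fosb was above both in 8 of 13 and below both in 0, while Fos was above both in 5, below both in 2 and between the sham libraries in 6. At the other end, Jund was below both sham values in 8 of 13 classes and above both in 1. Rhob and Gadd45g were below both in 6 of 13 each. Maff, Egr2, Egr3, Nr4a3, Klf4, Klf10, Plk2 and Cdkn1a were called in no class by edgeR or DESeq2. The classes of a library share its preparation, so these counts are not independent.

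Because 2VO 1 was the shallowest library, values per cell were taken after each cell had been thinned to 1000 UMIs, with shallower cells left out. The median number of UMIs of the 36 genes in a microglial cell was then 14 in 2VO 1, against 34 in sham 1 and 30 in sham 2, and the top 10% of cells began at 32 UMIs in 2VO 1, against 69.6 in sham 1 and 70 in sham 2, so 2VO was lower at the middle and at the top of the distribution. The median was 7 in 2VO 1, against 3 in sham 1 and 5 in sham 2 in OLGs. In OPCs it was 4 in 2VO 1, against 2 in sham 1 and 9 in sham 2, in ECs 12 in 2VO 1, against 8 in sham 1 and 10 in sham 2, and in VSMCs 20 in 2VO 1, against 19 in sham 1 and 18 in sham 2.

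Shares of cells with a Fos UMI did not always follow the order of the summed Fos levels. In ECs the share was 56.1% in 2VO 1, against 15.6% in sham 1 and 40.6% in sham 2. In OLGs it was 63.5% in 2VO 1, against 24.0% in sham 1 and 46.9% in sham 2. In pericytes it was 41.6% in 2VO 1, against 12.5% in sham 1 and 36% in sham 2, and in OPCs 46.5% in 2VO 1, against 12.0% in sham 1 and 66.6% in sham 2. Sham 1 was the lowest library in these 4 classes, and 2VO the highest in all but OPCs. By CPM, Fos of 2VO lay below sham 2 in ECs and pericytes and level with it in OLGs. At 500 UMIs per cell the pericyte share was 28.1% in 2VO 1 and 31.5% in sham 2, while ECs and OLGs kept their order. No order of 2VO and sham 2 is therefore read from the shares of ECs, pericytes and OLGs. The share in VSMCs was 78.0% in 2VO 1, against 74.7% in sham 1 and 73.7% in sham 2. In microglia it was 55.1% in 2VO 1, against 53.0% in sham 1 and 57.3% in sham 2, where Fos was lower in 2VO by CPM, so no order is read from this share. Without thinning the share was 71.9% in 2VO 1, against 68.5% in sham 1 and 67.5% in sham 2 in microglia and 66.4% in 2VO 1, against 23.0% in sham 1 and 45.7% in sham 2 in ECs. The neuronal clusters had 24.4% in 2VO 1, against 4.35% in sham 1 and 4.55% in sham 2, and ASTs 17.9% in 2VO 1, against 5.19% in sham 1 and 8.05% in sham 2, the lowest shares of the sham libraries. No class is known to lack Fos, so no share is taken as a background. The lowest was the sham 1 share of 4.35% in the neuronal clusters, at a median depth of 4610 UMIs before thinning.

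Atf3 was found in fewer microglia of 2VO and sham 2 than of sham 1, with 46.7% in 2VO 1, against 71.2% in sham 1 and 49.5% in sham 2. In VSMCs its share was 53.2% in 2VO 1, against 51.5% in sham 1 and 46.3% in sham 2, and in OLGs 10.5% in 2VO 1, against 1.08% in sham 1 and 1.47% in sham 2. Arc was found in 6.03% in 2VO 1, against 3.70% in sham 1 and 6.26% in sham 2 of OLGs. In the neuronal clusters Arc was found in 0 of 45 thinned cells of 2VO 1, which allows a share of up to 6.67%, against 2.17% in sham 1 and 3.90% in sham 2, so a difference in this share was not detectable at this depth. Intervals and limits of shares cover counting error only.

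**Figure D5:**
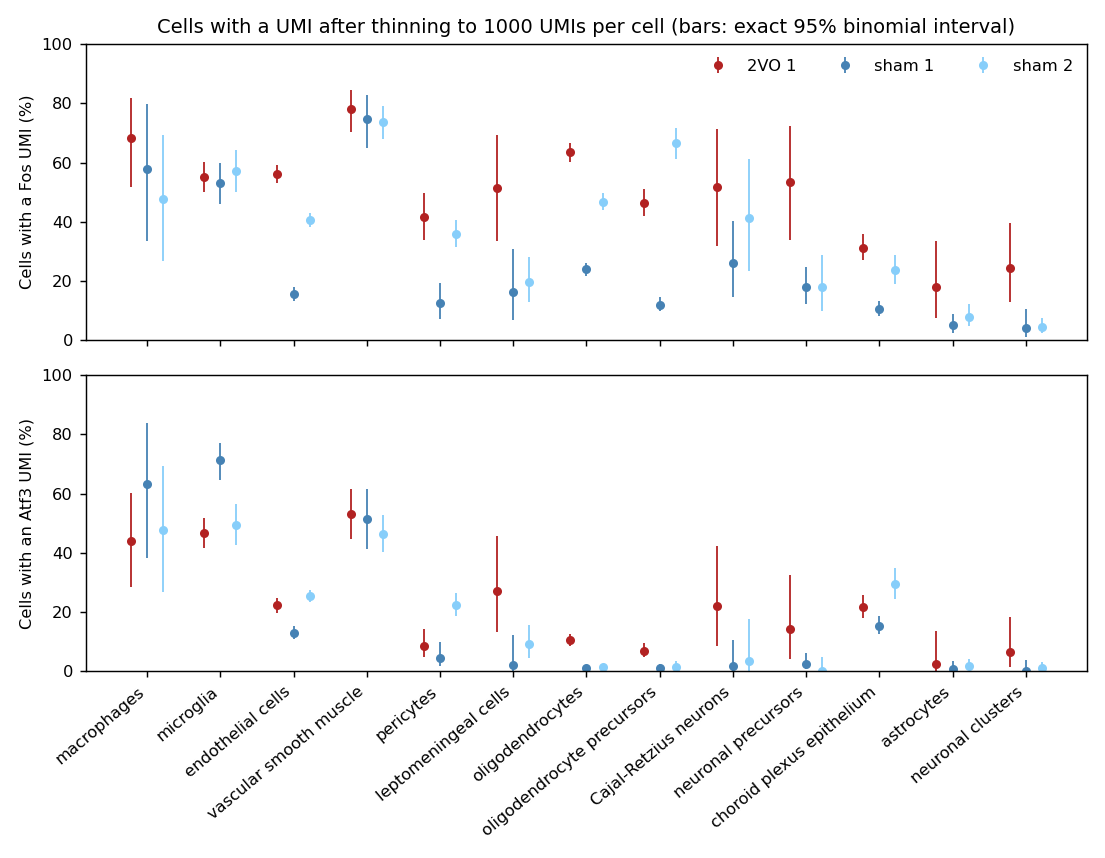
Percent of cells with a Fos UMI (upper panel) and an Atf3 UMI (lower panel) after thinning to 1000 UMIs per cell (vertical axes), by class (horizontal axis) and library, with exact 95% binomial intervals. The Fos points of VSMCs and microglia nearly coincide, those of OPCs stand at 46.5% in 2VO 1, 12.0% in sham 1 and 66.6% in sham 2, and the Atf3 point of microglia is highest in sham 1, at 71.2%.

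Lists of related genes were measured beside the 36. Over the 13 classes 2.39% of the tests of all genes were called higher and 3.28% lower, which is the background for each list. For 30 other rapid-response genes, 284 pairs of gene and class were tested, and 19 were called higher in 2VO and 6 lower. In ECs, Ptgs2, the inducible cyclooxygenase, was called higher, with 173 CPM in 2VO 1, against 8.64 CPM in sham 1 and 13.1 CPM in sham 2, and so were Nfkbiz and Zfp36l2. Ptgs2 was among the leading genes of the endothelial cluster led by Lcn2 and Lrg1. That cluster held 130 cells of 2VO 1, 17 of sham 1 and 39 of sham 2, and its part in these calls was not tested. In microglia the list was split. Called higher were 6 of 28 (Bhlhe40, Id1, Kdm6b, Klf9, Ptgs2 and Sik1), against 6.27% of all genes. Called lower were 4 (Cebpb, Gem, Ppp1r15a and Sgk1), against 4.13%. Sgk1, a kinase induced by serum and glucocorticoids, had 566 CPM in 2VO 1, against 1819 CPM in sham 1 and 2020 CPM in sham 2 in the microglial sums. In NPCs Sgk1 was called higher, with 267 CPM in 2VO 1, against 13.8 CPM in sham 1 and 8.26 CPM in sham 2. Among 20 upstream kinases and factors, 6 of 226 tests were called higher and 3 lower, and 7 of these 9 were in OPCs, the class where most of all genes were called (9.68% higher and 16.4% lower). There Mef2c, a MADS-box factor, had 66.0 CPM in 2VO 1, against 14.8 CPM in sham 1 and 20.2 CPM in sham 2. Srf, the factor of the CArG box, had 32.7 CPM in 2VO 1, against 14.1 CPM in sham 1 and 18.8 CPM in sham 2, and was called higher too. Of the delayed activity genes, 1 of 32 tests was called, Rgs2 in microglia, which was lower with 169 CPM in 2VO 1, against 564 CPM in sham 1 and 666 CPM in sham 2.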

How the data were processed

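The authors deposited whole-number UMI counts per gene and barcode from 10x 3′ libraries, made with Cell Ranger on mm10, and their notes also list Seurat 3.2.2. Here barcodes with at least 650 genes were kept, as in the study, and no count was normalized before summing. Cells were clustered in scanpy 1.11.5 (genes in at least 20 cells, 2000 variable genes without the 36 response genes, mitochondrial, ribosomal protein and haemoglobin genes, 30 components, 15 neighbours) with leidenalg 0.10.2 at resolution 1.0. Clusters were named from fixed markers, each detected in at least 10% of cells and at least 2-fold above the other cells, and details of this naming were set after the clusters had been seen. Doublets were kept, and their removal (the highest 2% of Scrublet scores in each library with ties, 2.13% to 2.99% of cells) was an alternative.

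Counts were summed per class and library and tested with edgeR 4.0.16 (R 4.3.3; TMM, filterByExpr, quasi-likelihood), with DESeq2 1.42.0 as an alternative, and the sham ratio had 0.5 counts added. Intervals are exact (scipy 1.17.1) at 95%, and a share of 0 was limited by 3 counts. The depth of each library is given in the report. No matrix of 2VO 2 was analysed here, so p-values measure only the spread between the sham libraries. The script was tested on simulated data.

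In each class the text names called genes, the 3 with the highest mean CPM, the 3 with the largest and the 3 with the smallest sham ratio among genes with at least 50 counts, and Fos, Jun, Egr1, Atf3, Arc and Npas4. The 36 genes, the lists and the rules were chosen with earlier results of these data known. Alternatives covered the tool, TMM, both filters, doublets, clustering, thinning, the denominator of the summed level and each sham library. The sums without the neuronal clusters or small classes and the DESeq2 scaling of the sham ratio were added after seeing the data.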

Additional observations from a re-analysis of the deposited data

Results flagged for a closer look

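Some genes were called in opposite directions in different classes, with 2VO above both sham libraries in the first class and below both in the second. The differences between the classes were not tested, and classes of a library share its preparation. The log2 fold change of Atf3 in the neuronal clusters minus that in microglia was 5.52, and that of Klf2 for the same classes was 4.33. For Gadd45g the log2 fold change in VLMCs minus that in macrophages was 3.67. For Zfp36 the value in OPCs minus that in microglia was 3.3, for Junb the value in CPECs minus that in microglia was 2.74, and for Fos the value in NPCs minus that in microglia was 2.5.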

How the results depend on the processing

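Over the classes edgeR called 24 pairs of gene and class higher and 19 lower, and DESeq2 called 6 higher and 5 lower, of which 3, all in OLGs, were not among the 43. In CPECs, OLGs and OPCs the DESeq2 counts were near or below the share of all genes it called. Without the filter on low counts 65 were called higher and 35 lower, without TMM 12 lower, and with at least 200 genes per barcode 7 lower. Without classes under 50 cells in any library 12 were called higher, and 16 in place of 36 genes were more than 2-fold higher in sham 1. Of the 43 calls, 8 were called by DESeq2, 24 were not and 11 had no DESeq2 p-value, and 14 were kept with 200 genes per barcode, 30 without TMM, 35 without the filter, 35 with the response genes among the variable genes, 37 without doublets and 40 at resolution 2.0. Called under every alternative that gave a value were 4, Nr4a1 in CPECs and OPCs, and Gadd45b in CPECs and Zfp36 in OPCs, of which the last 2 had no DESeq2 p-value. Leaving out sham 1 or sham 2 leaves no test, and all 43 kept their sign, which being called already makes likely. No paired analysis was possible because 2VO 1 is the only 2VO library analysed, so the groups share fewer than 2 replicate numbers. The cause of these changes was not tested, except that fewer classes or no filter change what is counted.

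The log2 ratio of the summed level, 2VO 1 over the sham mean, was 0.35 in ASTs, and 0.625 with 200 genes per barcode and 0.71 without doublets. It was -1.23 in microglia and -1.096 with 200 genes, and 0.90 in the neuronal clusters, 0.688 with 200 genes and 1.045 without the gene with most UMIs. Without that gene it was 0.276 in NPCs, in place of 0.05, and 0.137 in VSMCs, in place of 0.10, and 0.14 there without mitochondrial and ribosomal-RNA-associated transcripts. The Fos share in microglia, 2VO 1 minus the sham mean, was -0.01 percentage points, 3.94 without thinning and -7.49 at 500 UMIs per cell. Log2 sham ratios that turned were Cdkn1a in ASTs (0.865) and Atf3 in OPCs (1.203) without doublets, and Egr1 in ASTs (-0.779), Gadd45b in macrophages (-0.605) and Zfp36 in the neuronal clusters (-0.165) with 200 genes, and Egr1 in ASTs (-0.706) with the response genes among the variable genes. Classes with only 19 to 47 cells in a library limit what could be called there.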
